A study of Ovis aries with 18 samples.

Results

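Stably intermediate windows of ram sperm are short stretches of the genome in which neither methylated nor unmethylated reads prevailed in any animal. The genome was divided into adjacent windows of 200 bp, and a window was chosen by its level in all 6 rams. It had to hold at least 5 listed cytosines, lie on a numbered chromosome and show between 35 and 65% methylated reads in every ram. Of 105315 windows with 5 or more cytosines, 395 met this rule, which is 0.375% of them, and they held 3714 cytosines at 2620 CpG sites. The window levels chose the windows and are therefore given as a description.

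Sperm DNA methylation was measured by reduced representation bisulfite sequencing (RRBS) in 6 Polypay rams, 3 on each diet. Ram410, Ram423 and Ram444 were controls on a general basal diet. Ram424, Ram498 and Ram511 were methionine-treated and received the same basal diet topped with rumen-protected methionine (1.5 g, 0.22%), an amino acid that donates methyl groups, coated to pass the rumen. Values of a diet group are listed in this order of rams throughout. Both groups were fed their diets from the third into the sixth month of life, before puberty, and each semen sample was taken from a single ram about a month after feeding ended. The purity of the sperm samples was not checked here, since no gene annotation of the build of the data was used.

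In RRBS, DNA is cut at sites rich in CpG and treated with bisulfite. This leaves methylated cytosines as they are and turns the others into uracil, which is read as thymine. Methylation in sperm is mostly bimodal: CpG islands are largely free of it and the rest of the genome is largely covered. A sperm cell is haploid and carries each stretch once, so that a single molecule is methylated or not at a given cytosine. A level between these states is a property of many reads, and it may be an average over molecules, over neighbouring cytosines, or over both.

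The bimodal pattern was present in these rams. Of all windows, 80797 were under 10% in every ram and 6790 were over 90% in every ram. Windows at 35 to 65% on the mean of 6 rams numbered 3039, and the stably intermediate windows were 13.0% of those. The other 2644 had at least 1 ram outside the bounds and are called variable intermediate windows here.

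The rams were not alike in coverage or in the methylated share of their reads. Listed cytosines had a median of 22, 25 and 23 reads in the control group, and of 22, 39 and 31 in the methionine-treated group. Methylated reads made up 14.8 to 15.6% of all reads at listed cytosines in Ram424 and the control rams, 6.14% in Ram498 and 9.12% in Ram511. This share weights each cytosine by its coverage. It therefore does not measure the methylation of the genome as a whole. The number of windows, the spread inside them, their share in the first Mb and the difference between diets are therefore also given without Ram498 and Ram511. The pattern between rams, the neighbours and the chromosome shares are given for all 6 rams.

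Coverage in these rams moved with the methylation class. In windows under 10% in every ram, the median reads per cytosine were 42.5 in Ram498 and 33.0 in Ram511. In windows over 90% they were 12.0 and 16.6, and in the stably intermediate windows 23.9 and 24.8. The other rams lay between 20.8 and 25 reads in all of these classes. Relative to the mean of the control rams, the median coverage of Ram498 was 1.85 times in low windows, 1.02 times in stably intermediate windows and 0.508 times in high windows. The plot of coverage by class shows lines that fall for these rams and are flat for the rest. The part of this pattern in the levels reported here was not tested.

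**Figure D1:**
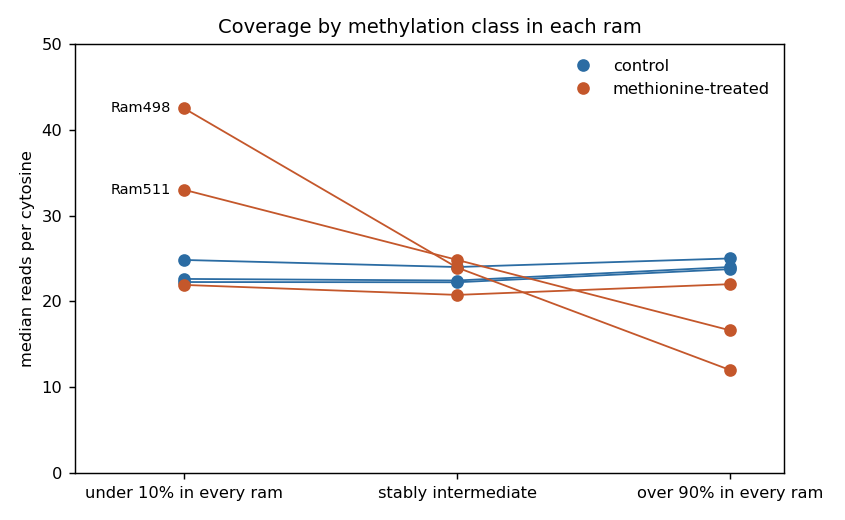
Median reads per cytosine (vertical axis) in windows under 10% in every ram, in the stably intermediate windows and in windows over 90% in every ram, with a line for each ram, in blue for control and orange for methionine-treated rams. Ram498 falls from 42.5 to 12.0 reads and Ram511 from 33.0 to 16.6, while all rams are at 20.8 to 24.8 in the stably intermediate windows.

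Within the bounds, the windows of each ram spread over the whole permitted range. The mean level over the 395 windows was 47.9% in Ram410, 49.7% in Ram423 and 51.4% in Ram444 among the controls. It was 51.1% in Ram424, 43.7% in Ram498 and 45.98% in Ram511 among the methionine-treated rams. Ram498 was the lowest of the 6 rams in 182 windows and the highest in 9, and Ram511 was the lowest in 87. Ram444 was the highest in 111 windows. The group means were 49.7% ± 1.72 (SD, n = 3) for control and 46.9% ± 3.76 (SD, n = 3) for methionine-treated rams, and the levels of the groups overlapped.

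**Figure D2:**
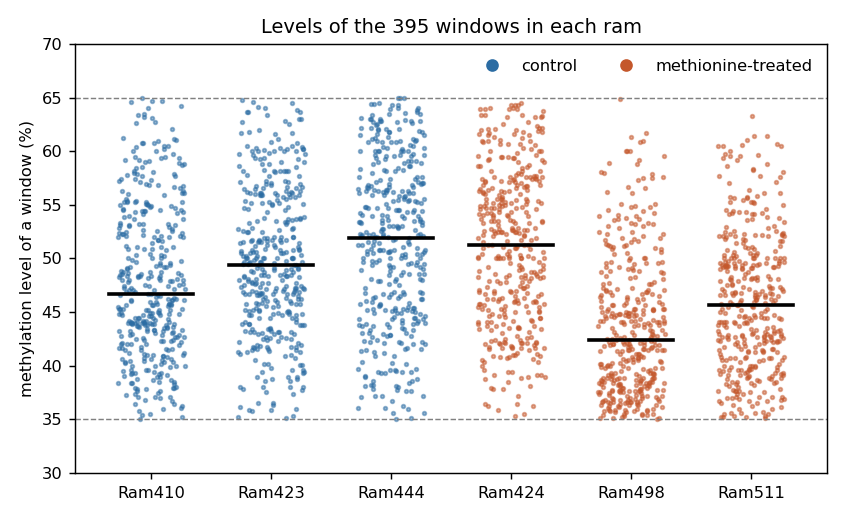
Methylation level of each of the 395 stably intermediate windows (vertical axis, %) in each ram, with a point per window and a black line at the median; blue marks control and orange methionine-treated rams, and the dashed lines are the bounds that chose the windows. Medians run from 42.4% in Ram498 to 51.9% in Ram444.

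The spread of a typical single window between rams was set beside counting error. The SD between the 6 rams had a median of 5.70 points, and the range between the lowest and the highest ram had a median of 14.9 points (2 to 29.4). A window had a median of 188 cytosine calls per ram (50 to 5781), summed over cytosines that share reads. Around a level of 50%, counting gives an SD of 3.65 points if every call is independent, and of 10.3 points if all calls of a window come from the same 23.4 reads. The median spread lay between these limits. The upper limit overstates counting error where cytosines lie on separate reads or differ in level. The limits therefore do not decide whether the spread of a typical window exceeds counting error. The bounds also cap this spread, and the limits do not cover a shift shared by many windows, such as the low levels of Ram498 given above. At 245 reads per cytosine, chr14:34629201-34629400 had an SD between rams of 8.15 points. The variable intermediate windows had a median SD of 13.9 points, a contrast that the rule itself sets.

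The bounds cut through a continuous distribution. The chosen windows closest to a bound were chr3:224105401-224105600, at 35% in Ram498, chr13:87017801-87018000, at 35% in Ram444, and chr16:78135401-78135600, at 35.02% in Ram410. The nearest windows left out were chr1:21273801-21274000, at 65.02% in Ram444, chr13:39795001-39795200, at 34.98% in Ram498, and chr10:197801-198000, at 34.95% in Ram498. All coordinates are those of Oar_rambouillet_v1.0.

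To measure a level that the choice had not used, windows were chosen by the same bounds in 5 rams and then read in the ram left out. Over the 6 choices, 2370 of 2923 windows (81.1%), counted with repeats, were also within 35 to 65% in that ram. Those inside were the same 395 windows in each choice. The choices therefore overlap, and their shares differ only by the number of windows chosen. Among all windows, 2.22 to 3.07% were within the bounds in a given ram. Most windows that were intermediate in 5 animals were so in the next.

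The share differed between the rams left out. For the control rams it was 89.8% of 440 windows in Ram410, 87.4% of 452 in Ram423 and 73.4% of 538 in Ram444. For the methionine-treated rams it was 86.6% of 456 in Ram424, 71.0% of 556 in Ram498 and 82.1% of 481 in Ram511. The 95% Wilson intervals, which cover counting error only, were 67.1 to 74.7% for Ram498 and 86.6 to 92.3% for Ram410. The windows that failed did so on different sides. In Ram498, 160 windows were below the bounds and 1 was above, and in Ram511, 84 were below and 2 above. In Ram444, 134 were above and 9 below.

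**Figure D3:**
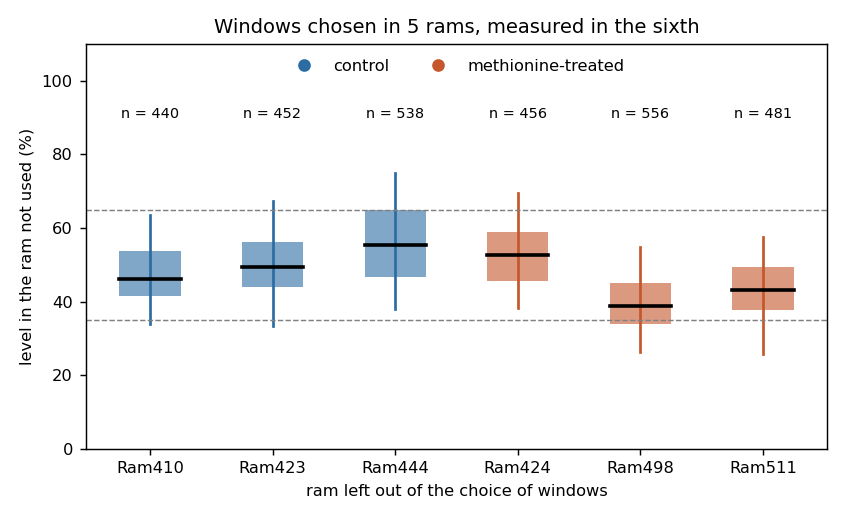
Level in the ram left out (vertical axis, %) of windows chosen in the other 5 rams; boxes run from the 25th to the 75th percentile, black lines are medians, thin lines run from the 5th to the 95th percentile, dashed lines are the bounds and n is the number of windows. The medians lie between 38.9% in Ram498 and 55.4% in Ram444, and the lower edge of the box of Ram498 is below the lower bound.

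Most of these windows were not uniformly intermediate inside. The SD of the cytosine levels within a window, with each cytosine taken as the mean of 6 rams, had a median of 19.5 points, with a 25th percentile of 14.9 and a 75th of 24.3. Of 3714 cytosines, 49.9% had a mean level of 35 to 65%, 2.34% were under 10% and 2.15% were over 90%. Of these, 273 cytosines (7.35%) were themselves within the bounds in every ram, a share that the low coverage of a single cytosine also limits. In 28 windows the mean level of every cytosine was within the bounds. In 84 windows a cytosine under 20% stood beside one over 80%, and in 17 a cytosine under 10% stood beside one over 90%.

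The extreme case was chr22:54260201-54260400, with 5 listed cytosines, all on the minus strand, and 18 to 30 reads per cytosine and ram. Its window levels were 58.0, 60 and 59.3% in the control rams and 59.3, 58.9 and 59.2% in the methionine-treated rams. The cytosines at 54260207 and 54260244 were at 0% in all 6 rams (0 of 159 reads each, which allows a share of up to 1.89%). Those at 54260212, 54260220 and 54260234, which lie between them, had means of 97.9, 98.3 and 99.3%. The steady window level was thus the average of cytosines at opposite extremes. The same held in chr5:38536601-38536800, with levels of 58.8 to 61.1% and cytosines from 0 (0 of 199 reads, up to 1.51%) to 98.6%, and in chr25:34727801-34728000, with levels of 55.9 to 59.8% and cytosines from 0 (0 of 103 reads, up to 2.91%) to 100%. These limits cover counting error only. A thymine in the DNA of the rams at a listed position would also read as 0%, and this was not tested.

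At the other end were windows with like levels at all cytosines. The smallest SD, 3.01 points, was that of chr1:262571201-262571400, where the means of 6 cytosines ran from 48.8 to 58.0%. Its levels were 57.8, 44.7 and 62.8% in the control rams and 64.1, 44.4 and 40.7% in the methionine-treated rams. The rams of a diet lay on both sides of the middle, and the groups overlapped. The next were chr3:112937201-112937400 and chr26:196601-196800, with SDs of 3.32 and 3.995 points. All 3 windows had 6 cytosines at 3 CpG sites, whereas the windows with the largest SDs had 5 cytosines at 5 sites.

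**Figure D4:**
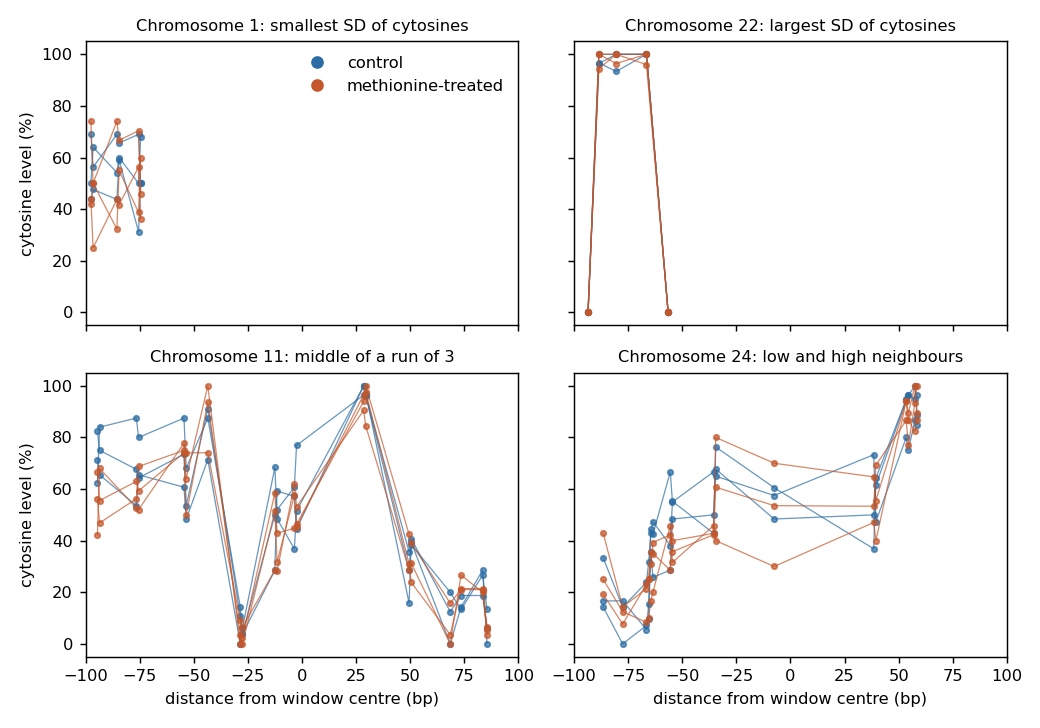
Level of each listed cytosine (vertical axis, %) against its distance from the window centre (horizontal axis, bp) in 4 stably intermediate windows, with a line per ram, blue for control and orange for methionine-treated. The chromosome 1 window has all cytosine means between 48.8 and 58.0%, the chromosome 22 window has cytosines at 0% and near 100%, and the chromosome 11 and 24 windows repeat their rises and falls in all 6 rams.

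The pattern inside a window was shared between rams. In the 211 stably intermediate windows with 8 or more cytosines, the mean correlation of cytosine levels between pairs of rams had a median of 0.807 and ran from 0.261 to 0.987. In 1454 variable intermediate windows of that size the median was 0.524. Over windows of all sizes, the SD of cytosine levels had a median of 19.5 points in the former and 11.3 in the latter. At like coverage a smaller spread lowers such a correlation, and its part in the contrast was not tested. These correlations are across cytosines of a window, which are not independent, and serve as a description. The window chr11:7491601-7491800 shows such a pattern over 21 cytosines, with a mean correlation of 0.913. Its cytosines on the plus strand at 7491606, 7491672 and 7491729 had means of 63.6, 6.26 and 96.2%. Across the 6 rams these ran from 42.1 to 82.4%, from 0 to 14.3% and from 90.5 to 100%, with no overlap between the positions.

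The spread inside windows was next compared at matched level. In each ram, the stably intermediate windows were set beside all other windows at 35 to 65% in that ram, which had fallen outside the bounds elsewhere. The median SD of the cytosine levels was 21.9, 21.8 and 21.7 points in the control rams, against 15.5, 15.3 and 15.6 points in the other windows. In the methionine-treated rams it was 21.8, 20.8 and 21.6 points against 16.0, 16.6 and 16.6 points. The stably intermediate windows had the higher median in 6 of 6 rams, and also in each ram within windows of 5 to 7, 8 to 11 and 12 or more cytosines. With windows chosen without Ram498 and Ram511, the medians were 19.1 to 20.8 points against 14.9 to 16.5. The rams compare the same members, so that they are not separate results. A choice by steady level in every ram may itself favour a wide spread inside windows, which was not tested. This comparison was built after values had been seen, and no test was made on it.

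**Figure D5:**
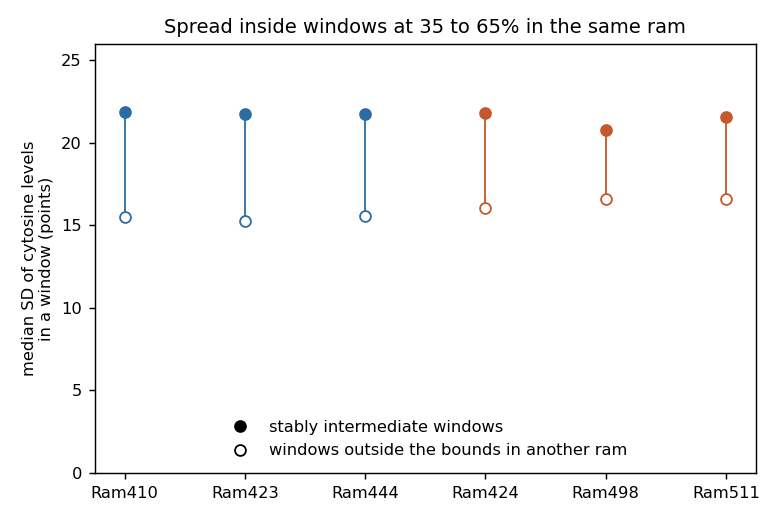
Median SD of cytosine levels inside a window (vertical axis, points) in each ram, for the stably intermediate windows (filled) and for windows at 35 to 65% in the same ram but outside the bounds in another (open); blue marks control and orange methionine-treated rams. Filled points lie at 20.8 to 21.9 points and open points at 15.3 to 16.6 in all 6 rams.

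A CpG site is symmetric, and maintenance methylation keeps its strands alike. Both strands were listed at 1096 sites of the stably intermediate windows, with a median of 145 reads per strand over 6 rams. The strands differed by a median of 3.71 points, and by under 11.9 points at 95% of the sites, where counting alone gives an SD of 5.87 points at a level of 50%. The gap was over 20 points at 6 sites, with a largest gap of 46.2 points. Over the sites, the strands correlated with an r of 0.952, a description over sites that share windows and libraries.

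Levels that average over many positions come from the windows with the most cytosines. The first was chr17:80683201-80683400, with 31 cytosines at 23 CpG sites and 534 to 1172 cytosine calls per ram. Its levels were 40.4, 43.0 and 38.5% in control rams and 42.1, 36.4 and 44.4% in methionine-treated rams. The groups overlapped, and the SD between rams was 2.97 points. The cytosines of this window had means from 14.98 to 67.9%. In chr24:38962001-38962200, with 27 cytosines, levels were 44.2, 48.1 and 47.5% in control and 43.7, 42.9 and 51.0% in methionine-treated rams. Again the groups overlapped. The window chr10:95343601-95343800, with 29 cytosines, was less steady, at 44.0, 46.8 and 49.8% in control and 61.7, 36.8 and 47.2% in methionine-treated rams. Here the highest and the lowest of the 6 rams, Ram424 and Ram498, had the same diet.

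The other windows of this kind were chr3:240336401-240336600, chr6:129125401-129125600, chr14:70980601-70980800 and the adjacent pair chr20:51529801-51530000 and chr20:51530001-51530200. They had 24 to 26 cytosines. The steadiest of them was the chromosome 3 window, at 43.9 to 53.3%, and the widest was the second chromosome 20 window, at 38.9 to 62.7%. In chr6:129125401-129125600 the cytosine means ran from 16.3 to 98.3%.

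In the control rams and Ram424, the coverage of the chosen windows differed by at most 1 read per cytosine from that of all windows. The median over windows of the mean coverage per cytosine was 23.4 reads, against 26.7 over all windows and 22.3 in variable intermediate windows, where the value over all windows is raised by Ram498 (39.5 reads) and Ram511 (31.1). A few members stood far above this. The window chr14:34629201-34629400 had a mean of 245 reads per cytosine, with 5781, 3001 and 1688 cytosine calls in the control group and 2309, 595 and 2770 in the methionine-treated group. Its levels were 49.4, 59.0 and 50.8% in the control rams and 57.6, 36.8 and 45.8% in the methionine-treated rams. The ram with the fewest calls, Ram498, had the lowest level. The windows chr1:128504201-128504400 and chr6:54001-54200 had 138 and 103 reads per cytosine. The lowest coverages were 13.2 reads in chr7:115401-115600 and 13.5 in chr14:53714001-53714200.

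Most stably intermediate windows had no listed neighbour that was also a member. Of the 395, 356 had no adjacent member, 15 pairs were adjacent and 3 runs held 3 windows. Only 97 of the 395 had both neighbours listed, so that many adjacent windows could not be judged. The run chr11:7491401-7492000 had 43 cytosines, with mean window levels of 49.7, 56.0 and 50.8% in control and 48.9, 45.8 and 50.3% in methionine-treated rams. The run chr5:19633001-19633600 had 36 cytosines and levels of 46.3, 52.8 and 49.4% in control and 46.7, 40.5 and 47.1% in methionine-treated rams. In the third, chr7:51001-51600, they were 48.3, 50.3 and 49.6% in control and 49.9, 45.5 and 42.8% in methionine-treated rams. The groups overlapped in the mean levels of all 3 runs. Within the runs, the control rams lay above all methionine-treated rams in chr5:19633401-19633600 and in chr7:51401-51600. Among all windows, the diets lay apart in either direction in 9.05%. The nearest rams were Ram444 at 42.2% and Ram424 at 42.0% in the first window. In the second they were Ram410 at 51.97% and Ram424 at 51.91%. The logistic regression on diet, described below, gave p of 0.124 and 0.282 and q of 0.851 and 0.934. When members up to 5 kb apart were joined, the largest group was chr26:20490201-20495600 with 5 windows, and 4 further groups held 4.

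Adjacent windows were themselves often intermediate. Of 399 adjacent windows with 5 or more cytosines, 44.1% had a mean level of 35 to 65%, 35.8% of 10 to 35% and 7.52% of under 10%. Above the bounds, 8.52% were at 65 to 90% and 4.01% over 90%. Beside windows in general, 2.24% of the neighbours were at 35 to 65%, and beside variable intermediate windows 49.8% were. Intermediate neighbours were thus more frequent beside both kinds of intermediate window than beside windows in general.

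Some of the windows lay at borders. Of 97 with both neighbours listed, 25 had both within the bounds and 18 had one below and one above. The correlation of cytosine level with position was above 0.8 in size in 83 stably intermediate windows (21.0%) and in 16.5% of the variable ones. With 8 or more cytosines, where such a value is harder to reach, it was so in 10.4% of the former and 10.1% of the latter. The largest step, picked after values were seen, was at chr24:42923601-42923800, where the neighbours had means of 3.63 and 96.4% and the window 49.9%. Its levels were 51.2, 51.1 and 56.9% in control and 56.4, 44.7 and 39.2% in methionine-treated rams. The cytosine at 42923623 had a mean of 10.9% and that at 42923758 a mean of 92.8%. Across the 6 rams the first ran from 0 to 16.7% and the second from 82.4 to 100%, so that the rise lay at the same place in each ram.

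The windows were unevenly placed along the genome. There were 3.75 per 1000 windows over all numbered chromosomes. The share was highest on chromosome 26, at 8.89 per 1000 (95% Wilson interval 5.39 to 14.6), chromosome 6, at 7.74 (5.20 to 11.5), and chromosome 14, at 7.37 (5.53 to 9.82), which held 46 of them. It was lowest on chromosome 22, at 1.25 per 1000 (0.424 to 3.66). The intervals count windows as independent, which adjacent or grouped windows are not. Of the 15 on chromosome 26, 5 lay in chr26:20490201-20495600 and 4 in chr26:193201-200600. The first Mb held 5 of these 15, and 6 of the 24 on chromosome 6.

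The first Mb of a chromosome in the assembly held 42 of the windows (10.6%), on 16 chromosomes, and 29 of these were within 200 kb of position 1. Of all windows, 2.19% lay in the first Mb, as did 4.69% of the variable intermediate windows and 3.51% of the windows over 90%. Stably intermediate windows were 1.82% of the windows in the first Mb and 0.343% of the rest. Median coverage was 23.5 reads per cytosine for the members in the first Mb and 23.3 for the others. With windows chosen without Ram498 and Ram511, 59 of 827 (7.13%) were in the first Mb. The last Mb held 10.1% of the stably intermediate windows, 13.7% of the variable ones and 16.0% of the windows over 90%. These shares were compared after values had been seen and were not tested.

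The study asked whether methionine in the diet of young rams changes sperm methylation. The difference between diets was tested in each of the 105315 windows by a logistic regression of methylated and unmethylated reads, corrected for overdispersion, with Benjamini-Hochberg adjustment over all windows. A window was called at q under 0.01 where the pooled reads of the diets differed by over 20 points. No stably intermediate window was called (0 of 395), where the share called over all windows was 0.0437%. The bounds allow a member a difference of at most 30 points, so that the rule itself works against a call. The smallest q among the members was 0.0169, at chr1:142732201-142732400. Its levels were 57.1, 52.0 and 53.0% in the control rams and 46.01, 40.9 and 39.8% in the methionine-treated rams. The groups did not overlap there, and the pooled difference was -11.7 points.

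At an unadjusted p under 0.05, 32 stably intermediate windows (8.10%) differed between diets, beside 6.89% of all windows. Of these, 31 (7.85%) were lower in methionine-treated rams, beside 3.74% of all windows, and 1 was higher. The 3 rams of a diet lay apart from the other 3 in 33 windows (8.35%), beside 9.05% of all, and in 30 (7.59%) the methionine-treated rams were the lower ones, beside 4.25%. The median pooled difference over the members was -2.78 points (-17.8 to 15.7), and 299 of the 395 (75.7%) had a negative difference. Most windows of the genome are near 0% and can hardly fall, so that the variable intermediate windows are the closer comparison in level. There the median difference was -9.27 points, 85.2% were negative, and 344 of 2644 (13.0%) were lower and 5 higher at p under 0.05. The overdispersion, which holds both the spread between rams of a diet and the dependence of calls on the same read, had a median of 2.62 in the members and 13.8 in the variable intermediate windows. A variable window has at least 1 ram outside the bounds and a member has none. The rule itself therefore favours larger differences and a larger overdispersion in the variable windows, and their sizes are not a fair contrast.

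The direction turned without Ram498 and Ram511. Without both, 23 members were at p under 0.05, with 8 lower (2.03%, beside 2.33% of all windows) and 15 higher (3.797%, beside 7.98%) in Ram424 than in the control rams. The median difference was then 1.11 points, and 172 of the 395 (43.5%) were negative. The variable intermediate windows turned as well, to 86 lower and 164 higher and a median of 2.52 points. Without Ram498 alone there were 17 members lower (4.30%, beside 3.07% of all windows) and 9 higher (2.28%, beside 4.86%). Without Ram511 alone there were 39 lower (9.87%, beside 3.44%) and 2 higher (0.506%, beside 3.51%). Without Ram424 there were 65 lower (16.5%, beside 5.76%) and 1 higher (0.253%, beside 3.02%). The lone methionine-treated ram in the first of these fits is assumed to vary like the controls. Ram498 and Ram511 also had the lower methylated share of reads and the coverage that fell with methylation, as given above. The share depends on the coverage, so that these are not separate measures. Their part in the difference was not tested. By an F test in place of the chi-square test, 14 members were at p under 0.05, beside 1.42% of all windows. By limma on logit levels, 0 members were at p under 0.05, beside 4.91% of all windows. By either, 0 windows of the whole table were called, so that the 0 calls among the members say nothing about them.

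Single cytosines in these windows were tested in the same way. Of 3714, 0 were called, where 0.0184% of 1850625 listed cytosines were, and 225 (6.06%) were at an unadjusted p under 0.05, beside 2.94% of all. By the F test 51 of 3714 were, beside 0.374% of all. Both shares in the members were thus above those of all cytosines, which were not matched in level. The first by p was at position 44709426 of chromosome 21, on the plus strand. It was at 75, 86.4 and 88.9% in control rams, from 12 to 22 reads, and at 33.3, 38.5 and 52.4% in methionine-treated rams, from 12 to 26 reads. The groups did not overlap, and the q over all cytosines was 0.0121 with a pooled difference of -42.2 points. The minus-strand cytosines at 68031669 and 68031705 of chromosome 14, also among the first 5 by p, were at 0% in the control rams and Ram498, from 79 reads each, which allows up to 3.80%. In Ram424 both were at 19.2%, and in Ram511 they were at 30.8 and 34.6%, so that the rams of the methionine diet did not move together.

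Under a looser call, at q under 0.05 and over 10 points, chr1:142732201-142732400 and chr3:224105401-224105600 were called, beside 0.139% of all windows. The latter was at 52.0, 58.0 and 54.7% in control and 44.2, 35 and 44.2% in methionine-treated rams, with no overlap, a pooled difference of -12.9 points and q of 0.0337. Leaving out a ram called chr24:1754401-1754600, without Ram410, where 0.146% of all windows were called, and chr3:153878001-153878200, without Ram424, where 0.35% were. In the former the ram left out was at 38.3%, beside 61.7 and 63.0% in the other control rams and 38.8 to 42.4% in the methionine-treated rams. In the latter Ram424 was at 52.9%, beside 35.1 and 45.1% in the other methionine-treated rams and 56.8 to 62.9% in the control rams. Each of these calls thus depended on dropping the ram whose level was nearest to the other diet.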

How the data were processed

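Per the labels and the methods of the study, the authors trimmed the RRBS reads with Trim Galore, aligned them to Oar_rambouillet_v1.0 with Bismark and Bowtie2, used unique molecular identifiers to remove duplicates, and kept CpG cytosines with at least 10 reads in every ram. The deposited values are whole-number counts of methylated, unmethylated and total reads per cytosine, strand and ram. The total equalled the sum everywhere, and every column was mapped to a ram by its label.

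Reads were summed over windows of 200 bp. Diets were compared by logistic regression with overdispersion from Pearson residuals, set to at least 1, and a chi-square test, in Python 3.11.15 with numpy 2.4.6, pandas 2.3.3 and scipy 1.17.1, and by limma 3.58.1 in R 4.3.3 on logit levels with a pseudocount of 0.5 reads. The regression was tested on simulated windows drawn without spread between rams of a diet and without shared reads. Its behaviour under the overdispersion of these data was therefore not tested. The age of each ram is not in the labels and was not a covariate. The samples were separate rams, and coverage filters favour sequence that every library covered.

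The windows, comparisons and lists were chosen with earlier results of these data known. The comparison at matched level, the classes of windows and neighbours, coverage by class and the shares near chromosome ends were set up after values had been seen. An unmatched comparison of spread was examined first (median SD 11.3 points in variable intermediate windows). Windows were named by the most cytosines, longest runs, highest and lowest coverage, smallest and largest SD, nearness to a bound and the diet tests. Since no annotation or sequence of this build was used, genes, sequences and embryo expression were not analysed here.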

Additional observations from a re-analysis of the deposited data

How the results depend on the processing

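The 395 stably intermediate windows became 99 with bounds of 40 to 60%, 1017 with bounds of 30 to 70%, 642 with 3 or more cytosines, 211 with 8 or more, 86 with at least 20 reads in every ram and 827 without both Ram498 and Ram511, an alternative added after values were seen. Leaving out each ram gave 440 to 556, and fewer rams or wider bounds can only add windows. Moved window edges, equally weighted cytosines and a cap on coverage gave 389 to 399, and merged strands gave 296. The number of members called between diets was 2 at q under 0.05 and over 10 points, and 0 to 1 when each ram was left out, with a call without Ram410 or Ram424. It was 0 with the F test, no overdispersion correction, 20 reads, 3 cytosines, limma (called by q under 0.01 without the 20-point difference) and without both Ram498 and Ram511. At single cytosines it was 9 with no overdispersion correction (0.242%, beside 0.319% of all cytosines) and 0 to 3 when each ram was left out, where 446 to 1424 of all cytosines were called. Leaving out Ram423, Ram424, Ram498, Ram410 or Ram511 gave at least 1. The share inside the bounds in the ram left out was 81.4% with moved edges and 81.8% with 8 or more cytosines. The median SD inside windows was 17.7 points with at least 20 reads, 16.7 with members chosen without Ram498 and Ram511, and, for a ram on its own, 21.9, 21.8, 21.7, 21.8, 20.8 and 21.6 for Ram410, Ram423, Ram444, Ram424, Ram498 and Ram511. At 20 reads the comparison at matched level gave 18.8 to 20.1 points against 13.0 to 16.7. The alternatives for embryo expression were not run. No paired analysis was possible because the groups share no replicate numbers. Depth limits both measures, since a cytosine had a median of 22 to 39 reads per ram and the cytosines of a window share reads.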

Other observations

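Outside the numbered chromosomes, the bounds of 35 to 65% in every ram were met by 2 of 1588 windows on the X chromosome (0.126%, 95% Wilson interval 0.0345 to 0.458%) and by 139 of 1211 windows on unplaced contigs (11.5%, 9.80 to 13.4%), on 93 contigs. The median coverage per cytosine of the windows that met the bounds, as the mean of 6 rams, was 16.7 reads on X, 107 on contigs and 23.4 on the numbered chromosomes. The mean level of all windows, whether or not they met the bounds, was 8.84% over X windows, 28.7% over contig windows and 13.5% on the numbered chromosomes.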
